A study of Mus musculus with 6 samples.

Results

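The data described here are the 351 probes, of 45281 on an Illumina mouse expression array, whose signal was raised by transfected DNA in wild-type cells and was already high in untreated cells lacking Trex1, but not in cells lacking Sting as well. They were chosen on measured values. With the array median subtracted, values floored at 16 and log2 taken, a member probe was detected on the mock-treated Trex1-deficient array and on the DNA-treated wild-type array. It was at least 1 log2 unit higher on the Trex1-deficient mock array than on the mock arrays of wild-type and double-deficient cells, and at least 1 unit higher on the DNA-treated than on the mock wild-type array. Between the double-deficient arrays it rose by less than 1. Of the members, 304 are paired with a gene, giving 229 of the 19057 genes named on the array, and 47 probes are unnamed. The rule reads 5 of the 6 arrays, so the values that chose the members are given as a description. Only the array of DNA-treated Trex1-deficient cells was not read by it.

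The exonuclease TREX1 clears DNA from the cytosol. DNA that escapes it binds the sensor cGAS, whose cyclic dinucleotide product activates the membrane adaptor STING, and STING in turn activates the kinase TBK1 and the transcription factor IRF3. IRF3 switches on type I interferon and some target genes directly; secreted interferon then acts through its receptor on interferon-stimulated genes. Loss of TREX1 is known for interferon-driven inflammation in mice and in human disease.

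The 6 groups hold 1 array each. Mouse embryonic fibroblasts from e13.5 embryos were wild-type (WT), deficient for Trex1 (TKO) or deficient for both Sting and Trex1 (STKO). The cells, labelled as strain C57BL6/129Sv, were either mock-treated (Mock) or given interferon stimulatory DNA (ISD), a double-stranded DNA, at 4 µg/ml for 6 h. Groups follow the sample titles. The genotype field of the labels contradicts them on Sting for 5 of the 6 arrays. With 1 array a group, no difference has a replicate check and none carries a p-value or an SD. Levels are log2(intensity + 16) after background correction and quantile normalization. Where a probe was not detected on an array its fold against that array is given as a lower bound. Higher or lower means a difference of 2-fold or more with detection on 1 or both of the compared arrays.

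Between 14488 and 16177 probes were detected per array. Trex1 was read by a pair of detected probes. The brighter stood at 10.00 on WT-Mock and 12.62 on WT-ISD, at 9.36 on TKO-Mock and 9.84 on TKO-ISD, and at 7.56 and 8.09 on STKO-Mock and STKO-ISD. Sting1 stood at 7.34 and 8.92 on the WT arrays, 7.13 and 8.06 on the TKO arrays, and 5.81 and 5.64 on the STKO arrays. Both were lowest on the STKO arrays, and Trex1 remained detected on the TKO arrays. Whether these probes lie inside the deleted parts is not known here, so they do not settle the labels. All 10 fibroblast markers were detected on every array, with a summed intensity above the array median of 20914.7 to 30490.3. All 6 leukocyte markers on the array were detected on every array too, with a sum of 56268.0 (TKO-ISD) to 72500.5 (STKO-ISD). None of the latter was near 0. Among the brightest were the lysozyme gene Lyz2 at 15.14 to 15.22, the macrophage receptor gene Adgre1 at 13.41 to 13.98 and Csf1r at 12.70 to 13.49. The arrays labelled as fibroblasts thus carry macrophage markers at high levels. In bulk RNA, fewer cells of a type and less RNA per cell cannot be told apart, and the part of these cells in the members' values was not tested. The leukocyte genes Ptprc (7.97 to 9.28 by its brightest probe) and Itgam (6.39 to 7.32) were lower. Of the leukocyte markers, read by 1 probe each, 0 of 6 differed 2-fold between TKO-Mock and WT-Mock and 0 of 6 between TKO-ISD and TKO-Mock. Over all probes, 4.44% were higher and 5.1% lower in the first contrast, and 3.98% and 1.46% in the second. A dimmer Ptprc probe, outside this count, was 2-fold higher on TKO-ISD (8.47) than on TKO-Mock (7.46). Cd14 was lower on TKO-Mock (12.12) than on STKO-Mock (13.41) and lower on TKO-ISD (11.64) than on STKO-ISD (13.61), and Ptprc was higher on WT-ISD (9.28) than on WT-Mock (8.20). Of the fibroblast markers, 4 of 10 were 2-fold lower in untreated TKO than in untreated WT cells, among them Col1a1 (10.27 against 12.08 on WT-Mock) and Thy1 (8.09 against 9.63). On STKO-Mock 3 were lower and 1 higher than on WT-Mock, and between TKO-ISD and TKO-Mock 1 was lower. Their part in the members' values was not tested either. No endothelial marker (0 of 4) was detected on any array, and 2 of 4 epithelial markers were detected on none.

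The promoters of 5 members are shown because they carry the interferon-stimulated response element (ISRE), a site bound by IRF factors, and because these genes recur in the results. They are a 2'-5' oligoadenylate synthetase (Oas1g), a pair of interferon-inducible GTPases (Gbp2, Irgm2), a PYHIN-family gene (Ifi205) and a tripartite-motif gene (Trim30a). Each line gives the 250 bases before the annotated start, 5′ to 3′ on the gene's strand, from RefSeq on build GRCm38.p6, with the ISRE letters (GAAA, any 2 bases, GAAA), on either strand, in capitals. The windows are chr5:120887614-120887863 (minus strand), chr3:142620413-142620662 (plus), chr11:58214727-58214976 (plus), chr1:174031756-174032005 (minus) and chr7:104465194-104465443 (minus).
Oas1g: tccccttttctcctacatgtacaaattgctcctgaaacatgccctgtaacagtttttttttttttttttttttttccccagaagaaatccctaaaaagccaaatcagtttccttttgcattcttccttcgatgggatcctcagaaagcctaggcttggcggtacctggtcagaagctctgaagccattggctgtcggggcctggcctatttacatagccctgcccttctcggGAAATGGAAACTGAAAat
Gbp2: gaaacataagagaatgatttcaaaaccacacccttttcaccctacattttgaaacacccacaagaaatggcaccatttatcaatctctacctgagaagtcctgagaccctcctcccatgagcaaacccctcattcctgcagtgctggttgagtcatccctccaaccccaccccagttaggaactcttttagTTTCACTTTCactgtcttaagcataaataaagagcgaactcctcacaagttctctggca
Irgm2: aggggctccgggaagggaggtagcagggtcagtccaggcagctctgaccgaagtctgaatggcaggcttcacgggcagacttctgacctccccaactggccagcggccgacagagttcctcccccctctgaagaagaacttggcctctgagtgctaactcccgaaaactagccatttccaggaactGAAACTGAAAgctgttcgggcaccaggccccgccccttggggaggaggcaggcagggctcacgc
Ifi205: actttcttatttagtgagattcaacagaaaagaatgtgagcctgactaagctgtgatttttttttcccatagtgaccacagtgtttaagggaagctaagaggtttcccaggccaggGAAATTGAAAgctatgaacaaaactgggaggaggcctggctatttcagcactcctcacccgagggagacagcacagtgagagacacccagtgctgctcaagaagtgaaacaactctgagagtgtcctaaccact
Trim30a: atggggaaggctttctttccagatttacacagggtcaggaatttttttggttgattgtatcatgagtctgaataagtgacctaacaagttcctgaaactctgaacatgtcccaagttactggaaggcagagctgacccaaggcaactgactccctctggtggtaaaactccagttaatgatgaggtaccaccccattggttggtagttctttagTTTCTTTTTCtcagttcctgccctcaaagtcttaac

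In Oas1g a pair of overlapping matches sits just before the start, the nearer centred at -7.5 bases from it. The match is centred at -54.5 in Gbp2, -59.5 in Irgm2, -31.5 in Trim30a and -129.5 in Ifi205. In Gbp2 and Trim30a it lies on the opposite strand.

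A window from 250 bases before to 50 after the start was found in the RefSeq table for 187 of the 229 member genes. Of these, 43 (23%) held the ISRE letters, against 1079 of all 27025 genes (3.99%) and 47 of 483 other genes whose probes were 2-fold higher on WT-ISD than on WT-Mock (9.73%). Genes detected on TKO-Mock and WT-ISD that are not members held it in 3.59%. Matches were counted in each of the 252 windows of these member genes. A site shared by windows of 1 gene with several starts can therefore count more than once. The 62 matches counted in this way had a median position of -49 from the start. For the NF-kappaB consensus the shares were 11.8% of member genes, 9.55% of all genes, 15.3% of the other DNA-induced genes and 12.2% of the detected genes that are not members. Among members, the ISRE letters were found in 8 of 9 GTPase genes, 5 of 10 genes of nucleic acid sensing and interferon transcription factors, 7 of 17 antiviral effector genes, and 20 of 135 genes outside the lists. They were found in 1 of 5 cytokine and chemokine genes and 0 of 3 of the ISG15 and PARP genes with a window. A match describes the sequence and does not show binding.

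**Figure D1:**
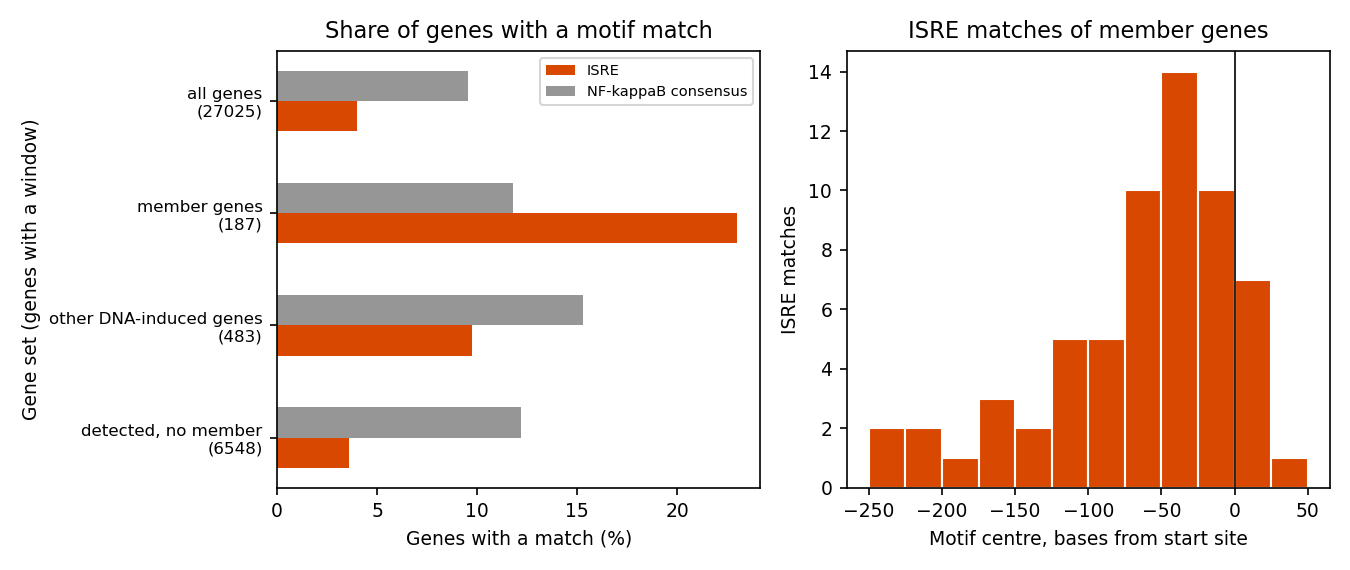
Left, percentage of genes whose promoter window holds each motif, for all genes, member genes, other DNA-induced genes and detected genes that are not members (number of genes with a window in brackets). Right, position of the 62 ISRE matches of member genes as bases from the start site (a line marks 0), counted in each window of a gene. The ISRE share is 23% in member genes and 3.99% in all genes, and most matches lie within 100 bases of the start.

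Across the members, the median level was 6.49 for WT-Mock, 9.49 for WT-ISD, 8.62 for TKO-Mock, 9.79 for TKO-ISD, 6.35 for STKO-Mock and 6.43 for STKO-ISD. The WT-Mock array and both STKO arrays were thus low, and the order of the 3 high arrays was TKO-Mock, WT-ISD, TKO-ISD. The highest of a probe's 6 levels was on TKO-ISD for 186 members, on WT-ISD for 158 and on TKO-Mock for 7. Detection followed the same division, with 238 members detected on WT-Mock, 347 for TKO-ISD, 219 for STKO-Mock and 234 for STKO-ISD, against all 351 on the arrays the rule demanded. On neither untreated control array, WT-Mock or STKO-Mock, were 100 members detected. The untreated TKO level amounted to a median of 68.8% of the log2 rise that DNA gave in WT cells, with an interquartile range of 54.8 to 86.4%. These shares follow in part from the rule, which bounds both rises from below.

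**Figure D2:**
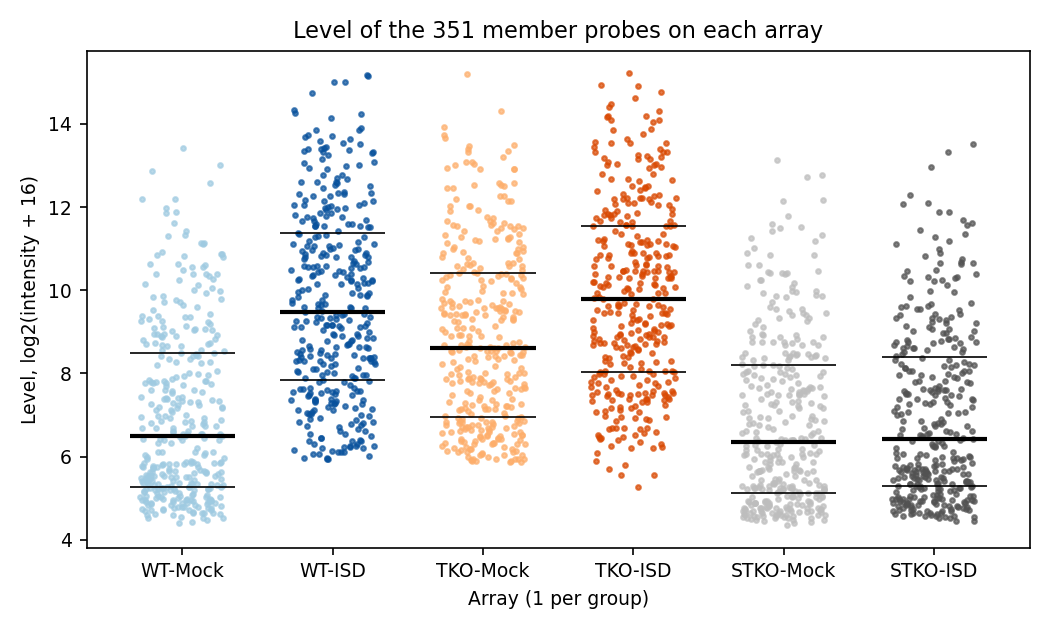
Level of each of the 351 member probes (points) on the 6 arrays, as log2(intensity + 16), with the median (thick line) and quartiles (thin lines). WT-Mock and the STKO arrays have medians of 6.35 to 6.49, and TKO-Mock, WT-ISD and TKO-ISD have medians of 8.62 to 9.79.

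The rule's own contrasts were as follows. On TKO-Mock, 316 members were 2-fold higher than on WT-Mock at the normalized level and 0 lower (backgrounds 4.44% and 5.1% of 16843 probes). They numbered 321 against STKO-Mock (background 4.09% higher, 2.89% lower) and 337 for WT-ISD against WT-Mock (background 7.46% higher, 5.43% lower), with 0 lower in either. Just inside the thresholds lay Pml at 1.0005 for TKO-Mock against WT-Mock, Wdr37 at 1.0018 against STKO-Mock, Klra3 at 1.00 for the WT rise and Anxa7 at 0.991 for the STKO bound. Just outside lay Bach1 at 0.984, an unnamed probe at 0.995, Irak2 at 0.991 and Ifit2 at 1.0082. The STKO bound alone kept out 49 probes that met every other condition. Among these are well-known targets of the pathway, including Ifnb1, Cxcl10, Isg15, Ifit2, Ifit3, Rsad2, Mx2, Irf7 and Tnf. Each of the other 3 thresholds alone kept out 53 (TKO-Mock against WT-Mock), 81 (TKO-Mock against STKO-Mock) and 84 probes (WT-ISD against WT-Mock). The bounds act on the rule's scale. At the normalized level many of these 49 probes were also under 2-fold between the STKO arrays. They include Isg15, 1 Ifit2 probe, Irf7 and 1 Tnf probe, at 0.80, 0.77, 0.88 and 0.91 on the log2 scale. Others stayed well above, such as Ifnb1 at 2.38 and a Cxcl10 probe at 3.20.

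Nucleic acid sensors and interferon transcription factors contributed 12 of the 22 listed genes on the array. Cgas, which encodes the sensor upstream of STING, read 10.16 in mock and 12.03 in DNA-treated WT cells, 11.66 and 11.86 in TKO cells, and 10.43 and 10.65 in STKO cells. Its 3 high arrays lay close together. Dhx58, whose product LGP2 belongs to the RIG-I-like RNA receptors, read 9.04 and 12.11 on WT-Mock and WT-ISD, 10.95 and 11.89 on TKO-Mock and TKO-ISD, and 7.97 and 8.22 on STKO-Mock and STKO-ISD. Unlike Cgas, it stood further below WT-ISD on TKO-Mock, and it was lower on both STKO arrays than on WT-Mock.

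Trim21, the cytosolic antibody receptor and ubiquitin ligase, read 8.67 and 11.93 on the WT arrays (Mock, then ISD, here and below), 10.89 and 11.82 on the TKO arrays, and 8.33 and 8.80 on the STKO arrays. For Trim25, the ubiquitin ligase acting on RIG-I, the levels were 10.57 and 11.85, 11.93 and 12.68, and 10.40 and 10.63 in the same order. Trim25 on TKO-Mock thus already matched WT-ISD, and TKO-ISD was the highest array. Stat2 and Irf9, which encode transcription factors of type I interferon signalling, were members as well. Stat2 read 7.90 and 10.58 on the WT arrays, 10.17 and 10.47 on the TKO arrays, and 6.93 and 7.38 on the STKO arrays. Ddx58, Tlr3, Aim2 and Zbp1, sensors of RNA or DNA, complete the named part of the group.

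Antiviral effectors were the largest list, with 35 probes of 21 genes out of 38 on the array. The oligoadenylate synthetases, which make the activator of RNase L, account for 15 probes of 7 genes; Oasl1 and Oasl2 are family members without that activity or with other roles, and Oas1 copies are close paralogues whose probes may share signal. Oasl1 had one of the widest ranges, with 6.81 and 13.24 on the WT arrays, 12.92 and 14.10 on the TKO arrays, and 4.82 and 5.54 on the STKO arrays, where it was not detected. TKO-Mock was 69.3-fold above WT-Mock and at least 155-fold above STKO-Mock, and TKO-ISD was the highest array. Oasl2 read 11.32 and 13.51, 13.09 and 13.75, and 9.55 and 9.61 in the same order.

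Oas1g, whose promoter is shown above, read 10.79 and 12.60 on the WT arrays, 12.51 and 13.24 on the TKO arrays, and 9.93 and 9.97 on the STKO arrays. Eif2ak2, encoding the RNA-activated kinase PKR that halts translation, read 10.88 and 13.44, 12.47 and 13.33, and 10.41 and 10.46. For both genes the STKO arrays lay below WT-Mock. Mx1, a dynamin-like GTPase against influenza-type viruses, was not detected on WT-Mock or on either STKO array. Its level was 10.85 for WT-ISD and 9.41 and 11.06 for the TKO arrays, and TKO-Mock was at least 14.9-fold above WT-Mock. The Schlafen genes Slfn1, Slfn2, Slfn5 and Slfn9 were members, and Slfn1 read 9.13 for WT-ISD and 9.59 and 9.93 for the TKO arrays, with no detection on the other 3 arrays.

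The ISG15 conjugation and PARP list contributed 5 of 10 genes. Parp14, a mono-ADP-ribosyltransferase, read 11.13 and 14.25 on the WT arrays, 13.19 and 14.20 on the TKO arrays, and 9.95 and 10.26 on the STKO arrays. Dtx3l, a ubiquitin ligase that partners PARP9, read 9.63 and 12.27, 11.54 and 12.20, and 8.49 and 9.24 in that order. Both genes reached nearly the same level on the DNA-treated arrays of WT and TKO cells. Ube2l6, the conjugating enzyme for ISG15, read 8.41 and 10.40, 9.92 and 10.35, and 8.05 and 7.99. Parp12, a further mono-ADP-ribosyltransferase, stood on TKO-Mock (10.30) between WT-Mock (8.90) and WT-ISD (11.33).

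Interferon-inducible GTPases, which act on vacuoles holding intracellular pathogens, gave 15 probes of 11 genes out of 16. Their median TKO-Mock difference from WT-Mock was 2.69 on the log2 scale, the largest of the lists, against 1.61 over all members. Gbp2 read 10.38 and 15.16 on the WT arrays, 13.03 and 14.93 on the TKO arrays, and 9.99 and 10.23 on the STKO arrays. Irgm2 read 9.72 and 13.40, 12.52 and 13.55, and 8.75 and 9.34. Ifi47, of the same class as Irgm2, read 9.13 and 13.30, 12.27 and 13.02, and 8.07 and 8.47. Gbp2 and Irgm2 differ in how far TKO-Mock lay below WT-ISD, by over 2 log2 units for Gbp2 and by under 1 for Irgm2.

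Gbp5, which promotes inflammasome assembly, was not detected on WT-Mock by either of its probes. The brighter read 12.59 for WT-ISD and 10.09 and 12.49 for the TKO arrays, with TKO-Mock at least 23.8-fold above WT-Mock. Irgm1, which regulates the other immunity-related GTPases, was read by 3 member probes. The brightest read 13.00 and 15.00 on the WT arrays, 14.31 and 14.78 on the TKO arrays, and 13.14 and 13.33 on the STKO arrays. A dimmer Irgm1 probe read 9.85 and 13.36, 12.26 and 13.32, and 8.82 and 9.44 in the same order. Across the 3 probes TKO-Mock exceeded WT-Mock by 1.31 to 2.46 on the log2 scale. Gbp and Irgm genes have close paralogues, so a probe may read more than 1 of them.

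Antigen processing and presentation gave 17 probes of 11 genes out of 25, all from the class I pathway, and had the smallest shifts, with a median of 1.36 for TKO-Mock against WT-Mock. H2-T23, the non-classical class I molecule Qa-1, read 11.97 and 12.99 on the WT arrays, 13.01 and 13.44 on the TKO arrays, and 11.50 and 11.46 on the STKO arrays. Psmb9, an immunoproteasome subunit, read 9.76 and 11.59, 10.77 and 11.55, and 9.30 and 9.30. Tap1, a subunit of the peptide transporter into the endoplasmic reticulum, read 7.35 and 10.81, 9.41 and 10.61, and 6.82 and 7.0. H2-T23 on TKO-Mock equalled WT-ISD, while Psmb9 and Tap1 stayed below it. The H2-Q and H2-T probes may read several class I copies.

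Cytokines and chemokines gave 12 probes of 8 genes out of 31. Ccl5, a chemokine for T cells and monocytes, read 9.36 and 14.74 on the WT arrays, 11.74 and 14.47 on the TKO arrays, and 9.33 and 9.15 on the STKO arrays. Cxcl9, a chemokine for activated T cells, read 6.32 and 15.02, 10.54 and 14.39, and 5.29 and 5.50, not detected on STKO. TKO-Mock thus held part of the DNA-treated level of both, and TKO-ISD came near WT-ISD.

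Ccl3 and Ccl4 are related macrophage chemokines. Ccl3 read 11.43 and 14.33 on the WT arrays, 13.35 and 14.92 on the TKO arrays, and 11.01 and 11.56 on the STKO arrays. The member probe of Ccl4 read 13.42 and 15.17, 15.20 and 15.21, and 12.72 and 13.51, so its 3 high arrays were level near the top of the array's range. A second Ccl4 probe, kept out by the STKO bound, read 10.72 and 15.01, 13.98 and 15.24, and 9.78 and 10.73, with TKO-Mock below WT-ISD as for Ccl3. Il15, a cytokine that maintains natural killer and memory T cells, read 9.24 and 13.64, 11.34 and 13.15, and 9.18 and 9.22, and its receptor chain Il15ra read 5.74 and 9.59, 7.14 and 10.06, and 5.65 and 5.86. The ligand and its receptor chain were both well below the DNA-treated levels on TKO-Mock.

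Among negative regulators 3 of 12 genes were members, and Adar among them was also counted with the antiviral effectors. Adar, the RNA-editing enzyme that limits sensing of self RNA, was read by 4 member probes; the brightest stood at 8.01 and 10.57 on the WT arrays, 9.50 and 10.29 on the TKO arrays, and 8.20 and 8.53 on the STKO arrays. Socs1, an inhibitor of JAK kinases, read 5.03 and 8.47, 6.57 and 8.70, and 4.62 and 4.96, and was detected only on the 3 high arrays. Atf3, a stress-induced transcriptional repressor, read 10.34 and 11.53, 11.48 and 11.82, and 10.40 and 10.75.

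**Figure D3:**
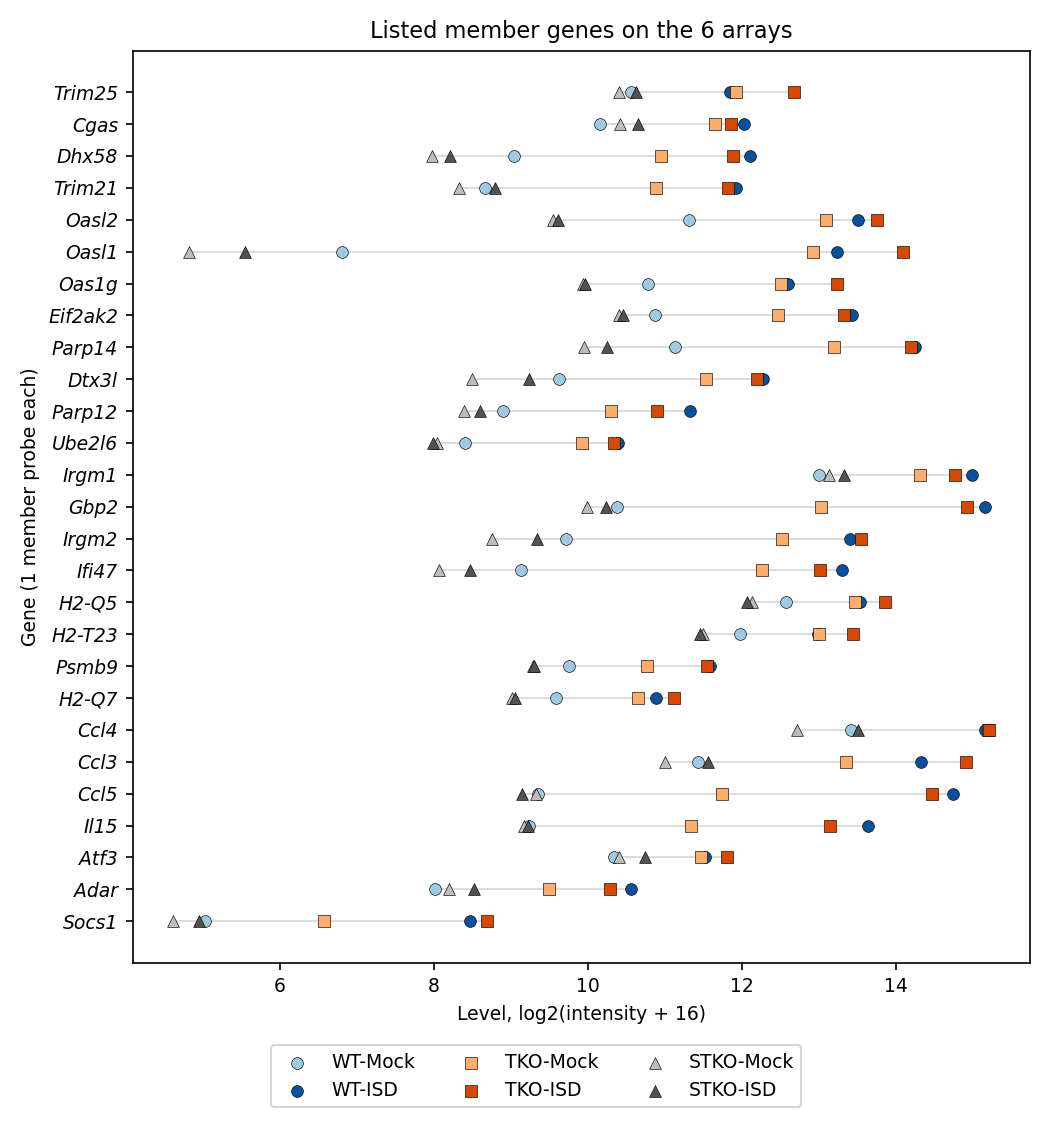
Levels, log2(intensity + 16), of listed member genes (1 probe each, up to 4 per list) on the 6 arrays, joined by a line per gene. For most genes WT-Mock and the STKO arrays lie left of TKO-Mock, and WT-ISD and TKO-ISD lie at the right end; Oasl1 spans 4.82 to 14.10.

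The other lists held no member. The NF-kappaB list is short and does not cover every target. It therefore does not show that no NF-kappaB target is a member. Of 11 listed NF-kappaB targets on the array, 10 were tested, by 1 probe each. At the normalized level 1 was lower and 0 higher in untreated TKO than in untreated WT cells. On WT-ISD 8 were higher than on WT-Mock. A probe of Nfkbie, 1 of the listed targets, met every rise on the rule's scale and was kept out by the STKO bound alone. At the normalized level it read 5.72 on WT-Mock and 6.62 on TKO-Mock. A further 11 tested genes belong to the interferon receptors and proximal signalling (receptor chains, JAK kinases, Tbk1, Irf3 and the like). Of these 11, 0 differed 2-fold between TKO-Mock and WT-Mock, and 3 were higher and 1 lower on WT-ISD. Over all probes tested, the shares for WT-ISD against WT-Mock were 7.46% higher and 5.43% lower. For the untreated TKO and WT arrays they were 4.44% and 5.1%. Lists of 10 or 11 genes are too short to set counts of 0 or 1 apart from such shares. For comparison, 15 of 22 sensor and interferon transcription factor genes, 24 of 34 antiviral effectors and 10 of 11 GTPases were higher on TKO-Mock, counts that the choice of members partly fixes.

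Most members, 159 genes, are in none of the lists, and the groups named next were formed after their values were seen. PYHIN genes, whose products bind DNA or form inflammasomes, had 9 probes of 6 genes and a median TKO-Mock difference from WT-Mock of 3.66. This group overlaps the lists, since Ifi205 and Mndal were also counted with the nucleic acid sensors. Surface ligands and receptors included Cd274, which encodes PD-L1, at 8.49 and 13.59 on the WT arrays, 12.52 and 14.30 on the TKO arrays, and 8.87 and 9.29 on the STKO arrays. Cd40, a costimulatory receptor, was read by 3 member probes, the brightest at 8.73 and 13.73, 11.03 and 13.31, and 8.33 and 8.85. Both were thus higher on WT-ISD and the TKO arrays than on WT-Mock and the STKO arrays.

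Genes usually read in myeloid cells were present too. Fcgr1 and Fcgr4, activating Fc receptors for IgG, belong here, and Fcgr4 read 10.39 and 13.32 on the WT arrays, 12.03 and 13.40 on the TKO arrays, and 9.46 and 9.21 on the STKO arrays. The leukocyte markers were detected on all 6 arrays, as given above. Batf2, a transcription factor of myeloid cells, was not detected on WT-Mock. It read 11.74 for WT-ISD, 9.64 and 12.08 for the TKO arrays, and 5.74 and 5.83 on the STKO arrays, so TKO-Mock was at least 17.5-fold above WT-Mock. Casp4, the caspase that senses cytosolic lipopolysaccharide, read 6.93 and 10.36, 9.75 and 11.24, and 8.23 and 8.75, and Mlkl, the executor of necroptosis, was also a member. Casp4 was higher on both STKO arrays than on WT-Mock.

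The first question open to the array that the rule did not read is whether DNA raised these probes further in cells that already had them high. On TKO-ISD 143 of the 351 members (40.7%) were 2-fold higher than on TKO-Mock and 0 lower, against a background of 3.98% of 16051 probes higher and 1.46% lower. The median difference was 0.86 on the log2 scale (quartiles 0.52 and 1.32) against -0.06 over all probes tested, and 336 members were above 0. The rule chose members for a high TKO-Mock value, the array subtracted here, and for a rise with DNA in WT cells. By TKO-Mock level, the median was 0.83 for the 91 members at 5 to 7 and 0.89 for 103 at 7 to 9. It was 0.95 for 92 at 9 to 11 and 0.75 for 65 above 11. The part of the choice of members in the difference was not tested.

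Medians differed more between the lists than between these levels. Of 12 cytokine and chemokine probes 11 were higher on TKO-ISD, with a median of 1.86. The exception was the Ccl4 member probe, bright on each of the 3 high arrays; the Ccl4 probe outside the members stood at 13.98 on TKO-Mock and 15.24 on TKO-ISD. GTPases were higher for 12 of 15 with a median of 1.49, and sensors and interferon transcription factors for 10 of 21 with a median of 1.00. Antiviral effectors were higher for 12 of 35 (median 0.79), ISG15 and PARP probes for 3 of 9 (0.82), negative regulators for 2 of 6 (0.77), and antigen presentation for 2 of 17 (0.68). The 4 Adar probes are counted with both the antiviral effectors and the negative regulators. Among members in all groups, 28 were 4-fold or more above TKO-Mock.

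Genes were ranked by their member probe of highest mean level. The 5 with the largest further rise were Cxcl9, 14.4-fold from 10.54 to 14.39, Serpina3f, a serine protease inhibitor, 10.1-fold from 7.49 to 10.83, Tnfsf15, a TNF-family ligand, 8.30-fold from 5.94 to 8.99, Il15ra, 7.57-fold, and Calhm6, a channel-family gene, 6.78-fold from 10.42 to 13.18. Tnfsf15 on TKO-Mock was near the lowest level of a detected probe there, 5.66. The dimmer Gbp5 member probe, not ranked, rose by 3.23 on the log2 scale, against 3.05 for Tnfsf15. Ccl5 came close, at 6.62-fold. At the other end A530064D06Rik, with 7.02 on TKO-Mock and 6.09 on TKO-ISD, was lower, by less than 2-fold. Cd180, Itga4, Casp2 and B430306N03Rik also read lower on TKO-ISD, by smaller margins.

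**Figure D4:**
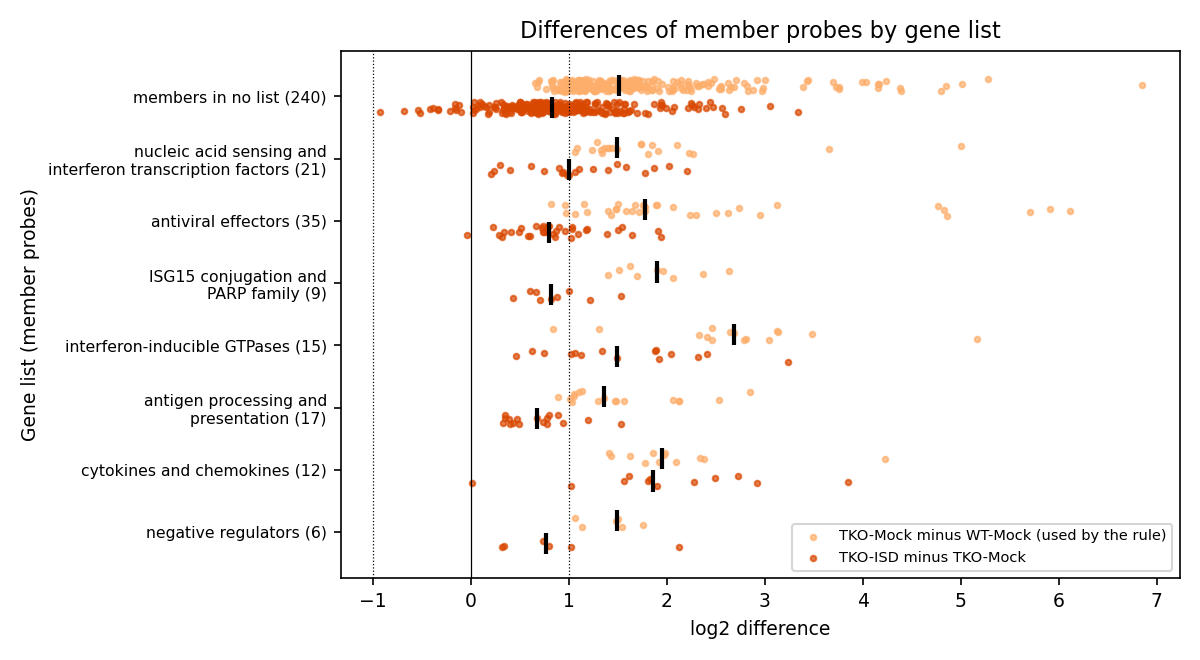
Log2 differences of member probes by gene list (number of probes in brackets), for TKO-Mock minus WT-Mock, which the rule used, and TKO-ISD minus TKO-Mock; black bars are medians and dotted lines mark 2-fold. The TKO-ISD median is 1.86 for cytokines and chemokines and 0.68 for antigen presentation.

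On the DNA-treated arrays WT and TKO cells were close. The median of TKO-ISD minus WT-ISD over members was 0.05 (quartiles -0.23 and 0.45) on the log2 scale, a sign that turned to -0.05 on the unnormalized scale of the rule. Of the members 30 (8.55%) were 2-fold higher on TKO-ISD and 5 (1.42%) lower, against backgrounds of 3.45% and 4.8%. On the rule's scale 17 were lower. The 10 that were 4-fold or more higher stand apart in the plot of the DNA-treated arrays. The lower ones were Gbp2, Dusp2, BC147527 and an unnamed pair of probes; Gbp2 in question was another probe than the one described above.

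**Figure D5:**
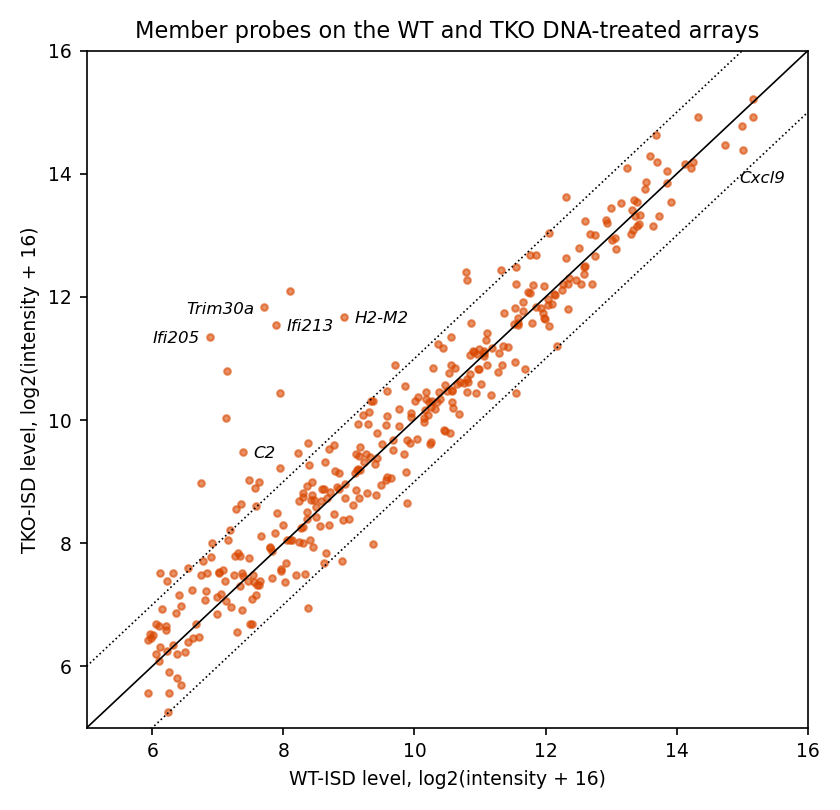
Level on TKO-ISD against WT-ISD for the member probes, log2(intensity + 16); the solid line marks equality and dotted lines 2-fold. Most probes lie between the dotted lines, and Ifi205, Trim30a, Ifi213, H2-M2 and C2 lie above.

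On TKO-Mock, 130 members were 2-fold lower than on WT-ISD and 11 higher, against backgrounds of 8.54% and 6.54%; TKO-Mock was 4-fold lower for 34. The median was -0.70. By list the median was -2.31 for cytokines and chemokines, -1.75 for GTPases, -1.06 for sensors and interferon transcription factors, -1.03 for ISG15 and PARP genes, -0.80 for antiviral effectors and -0.24 for antigen presentation. Both arrays were read by the rule. Hdc, which encodes the histamine-forming enzyme, was among the furthest below, at 10.68 for WT-ISD, 7.62 for TKO-Mock and 10.09 for TKO-ISD, with no detection on the other 3 arrays. Ifit1bl1, an Ifit-family gene, showed the same order at 12.18, 9.15 and 11.20, again with no detection elsewhere.

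A small set went the other way and was higher in untreated TKO cells than in DNA-treated WT cells. Ifi205, a PYHIN gene, read 4.48 (not detected) and 6.88 on the WT arrays, 9.48 and 11.35 on the TKO arrays, and 4.60 and 5.05 on the STKO arrays (not detected). TKO-Mock was at least 15.6-fold above WT-Mock and at least 14.2-fold above STKO-Mock. Ifi213, of the same family, read 6.10 and 7.88, 10.10 and 11.55, and 6.05 and 5.97, and its second probe, at 8.10 for WT-ISD and 11.55 and 12.09 for the TKO arrays, went the same way. By these probes both genes were far higher on the TKO arrays than on WT-ISD, and low on both STKO arrays. Of 9 PYHIN member probes, only 3 were 2-fold higher on TKO-Mock than on WT-ISD. The other Ifi205 member probe was not among them. PYHIN genes are close paralogues, and a probe of 1 may read another, which was not tested. Mndal of the same family followed the common order, at 7.81 and 11.06, 9.54 and 11.03, and 6.18 and 6.53.

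Trim30a, a ubiquitin ligase gene of the tripartite-motif family, read 4.89 (not detected) and 7.71 on the WT arrays, 10.80 and 11.83 on the TKO arrays, and 8.47 and 8.68 on the STKO arrays. Its level on each STKO array thus exceeded that of the DNA-treated WT array. Slamf7, a receptor of the SLAM family, showed the same order by its first probe, at 4.93 (not detected) and 7.13, 9.09 and 10.03, and 7.51 and 7.78. Its second probe placed WT-ISD, at 9.31, above TKO-Mock at 8.78 and above the STKO arrays at 6.77 and 6.86. H2-M2, a class I-like gene, read 7.31 and 8.93, 10.75 and 11.67, and 8.40 and 8.13, and complement factor C2 read 5.76 and 7.39, 8.68 and 9.48, and 5.99 and 5.69. A further Ifi205 probe was kept out of the members by the STKO bound. It read 4.61 and 10.04 on the WT arrays, 11.15 and 13.16 on the TKO arrays, and 4.71 and 5.79 on the STKO arrays. By this probe TKO-Mock was above WT-ISD by a smaller margin.

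The STKO arrays were in part fixed by the rule. Between STKO-ISD and STKO-Mock 1 of 238 tested members was higher and 0 lower (backgrounds 0.404% and 0.0674%), a contrast the rule bounded; the exception, a dim Oasl2 probe, passed 2-fold only after normalization. On TKO-ISD 337 of 348 tested members were 2-fold higher than on STKO-ISD and 0 lower (backgrounds 7.78% and 6.37%), with a median of 2.67; the rule chose for a low STKO-Mock level and bounded STKO-ISD, so this count is a description.

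Members did not all read the same on STKO-Mock and WT-Mock. Both are single arrays that the rule read, so the counts are a description. Of 251 members tested, 22 were 2-fold lower and 9 higher on STKO-Mock than on WT-Mock, against backgrounds of 2.11% and 1.17%, and the median was -0.19. These counts fell to 7 lower and 3 higher without background correction. The lower ones included Oasl1, Oasl2, Oas3 and Mndal, and Pik3ap1, an adaptor of PI3-kinase signalling, which read 7.16 and 8.72 on the WT arrays, 8.57 and 8.83 on the TKO arrays, and 5.94 and 5.96 on the STKO arrays. Of 15 oligoadenylate synthetase probes 8 were detected on 1 or both of these arrays, and 5 of the 8 were 2-fold lower on STKO-Mock. The higher ones were probes of Trim30a, Slamf7, Casp4, Trim30d, Rab19, H2-Q8 and H2-M2 and an unnamed pair. Rgs1, a regulator of G-protein signalling, read 10.84 and 12.31, 12.91 and 13.62, and 11.52 and 12.10, so that its STKO arrays lay between WT-Mock and TKO-Mock; STKO-Mock was less than 2-fold above WT-Mock.

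Where a gene had several member probes they mostly went together. Of 56 such genes, 40 had all probes on the same side of 2-fold for TKO-ISD against TKO-Mock. In 13 of the 40 all probes were higher, and in the rest none was. All these probes passed the same rule, and no share for probes of different genes was computed. The range between probes of a gene had a median of 0.29 on the log2 scale, and 55 stayed under 1. Another 70 probes of member genes were detected on TKO-Mock and WT-ISD without being members, and 63 of them had the members' 3 directions. The share of all detected probes with these directions was not computed, so this count is a description.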

How the data were processed

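Total RNA from 6 samples was hybridised as biotinylated cRNA to Illumina arrays, per the labels' protocols. The authors deposited a table of intensity values, not normalized per the deposited table's own name, with a detection fraction beside each intensity; the scanner software is not given in the sources used here. That fraction rises with signal (Spearman's rho 0.984 to 0.988 across probes), so 1 minus it was used as the detection p. The authors also deposited a value table on a log2 scale. Its values are centred on each probe's median, its column medians are 0.0 or -0.01, and how arrays were normalized in it is unknown; it served as an alternative.

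The members were chosen on intensities as described above. Levels came from neqc of limma 3.58.1 (R 4.3.3: normexp background, offset 16, quantile normalization), and the rest from Python 3.11.15 with pandas 2.3.3. A probe was detected above a fraction of 0.99. A fold against an array without detection is a lower bound, taken against the lowest level of a detected probe there. Gene names come from GEO's platform annotation (34885 probes with 1 gene, 18 with several, 10378 with none). Listed genes are named up to 4 per list by TKO-Mock level, and rankings name 5 at each end; other genes named were chosen after their values were seen. The members and lists were chosen with earlier results of these data known. With 1 array a group no test was made, and the number of arrays limits the precision.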

Additional observations from a re-analysis of the deposited data

Results flagged for a closer look

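Several named genes went in opposite directions with DNA in WT cells and in another genotype; each value is a difference between 2 single arrays on the log2 scale, and the difference between genotypes was not tested. In STKO cells the ISD minus Mock difference was -0.0544 for Ube2l6 (1.99 in WT), -0.0692 for H2-Q5 (0.96 in WT), -0.041 for H2-T23 (1.02 in WT), -0.18 for Ccl5 (5.38 in WT), -0.0791 for Ifi213 (1.78 in WT), -0.27 for H2-M2 (1.62 in WT) and -0.30 for C2 (1.63 in WT). B430306N03Rik read -0.46 in STKO cells and -0.16 in TKO cells, against 0.92 in WT. The rule bounded the STKO difference from above and the WT difference from below, so opposite signs are partly built into the choice of members. All the negative values are under 0.5 in size. On the rule's scale, without this normalization, the STKO difference was above 0 for Ube2l6 (0.103), H2-Q5 (0.0019), H2-T23 (0.0546) and Ifi213 (0.0423), so their sign depends on the scale; for Ccl5, H2-M2, C2 and B430306N03Rik it stayed below 0.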

How the results depend on the processing

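Of 106 alternative values for 14 results, 80 kept their direction and size. The median of TKO-ISD minus TKO-Mock stayed between 0.69 and 0.86, and that of TKO-Mock minus WT-ISD between -0.70 and -0.56. The median of TKO-ISD minus WT-ISD (0.0471) turned to -0.0468 on the rule's scale. The 351 members became 233 without background correction in the rule, 208 of them shared (59.3% of the members, 89.3% of the 233), and 187 with 3-fold rises. With a 1.5-fold threshold the fewer demands gave 256 members higher and 2 lower on TKO-ISD than TKO-Mock, 65 higher and 30 lower than WT-ISD, 201 lower on TKO-Mock than WT-ISD, and 19 higher and 63 lower on STKO-Mock than WT-Mock. With 1 probe for each of 229 genes, a setting added after seeing the data, fewer probes gave 93 higher on TKO-ISD than TKO-Mock, 2 lower on TKO-ISD than WT-ISD, 82 lower on TKO-Mock than WT-ISD and 5 higher on STKO-Mock than WT-Mock. On the rule's scale 4 were lower on TKO-ISD than TKO-Mock, 17 lower than WT-ISD, and 14 higher on STKO-Mock than WT-Mock; median scaling gave 1 lower on TKO-ISD than TKO-Mock. The STKO-Mock counts against WT-Mock (9 higher, 22 lower) were 3 and 7 without background correction, 4 and 8 with an offset of 50, 3 and 7 in the authors' value table, and 4 and 13 among members detected on both arrays. Apart from the thresholds and the smaller sets, the cause was not tested. Dim signals limit these counts, since 113 members were detected on neither STKO array.

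No paired analysis was possible because each group holds 1 array and the result comes from no test.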

Other observations

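Further member genes outside the lists included the Bcl2a1b, Bcl2a1c and Bcl2a1d copies, anti-apoptotic relatives of BCL2 that can share probe signal. Their median difference was 1.61 for TKO-Mock minus WT-Mock and 0.25 for TKO-ISD minus TKO-Mock on the log2 scale, and 0 of 3 probes were 2-fold higher on TKO-ISD than on TKO-Mock. The Ly49 receptor genes Klra3, Klra9 and Klra10, which encode natural killer cell receptors with close paralogues, read low throughout. Klra3 stood at 5.88 and 6.75 in mock and DNA-treated WT cells, at 7.89 and 8.97 in TKO cells, and was not detected on the STKO arrays. Il10, an anti-inflammatory cytokine gene, read 7.25 and 9.56 on WT-Mock and WT-ISD, 9.74 and 9.92 on TKO-Mock and TKO-ISD, and 6.76 and 7.32 on STKO-Mock and STKO-ISD. Its TKO level barely differed between mock and DNA treatment. Ppm1k, a mitochondrial phosphatase gene, was read by 3 member probes, the brightest at 6.68 and 10.47, 8.35 and 9.82, and 6.99 and 6.74 in the same order.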
